A study of Mus musculus with 24 samples.

Results

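The Dmrt genes encode transcription factors that bind DNA through a DM domain, a zinc-binding motif first known from sex-determining proteins of flies and worms. The 7 autosomal members of the mouse family, Dmrt1, Dmrt2, Dmrt3, Dmrta1, Dmrta2, Dmrtb1 and Dmrtc2, were taken by gene symbol from 21418 autosomal protein-coding genes (37310 genes of all kinds are annotated), and 4 X-linked Dmrt genes were left out. Dmrt1, Dmrt3 and Dmrt2 lie in that order on chromosome 19, and the other 4 lie elsewhere. For each gene the positions of H3K4me3 and H3K27me3 peaks were examined in a window of TSS ± 2 kb (4001 bp), in the gene body and, for the chromosome 19 genes, across the cluster.

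The study asked how these marks differ between bipotential gonad cells and the supporting cells that arise from them. ChIP-seq for H3, H3K4me3 and H3K27me3 was performed on 4 sorted populations with 2 replicates each, which gave 24 samples. XY and XX progenitor cells were sorted at E10.5 from gonads carrying the SF1-eGFP reporter. At E13.5, Sertoli cells came from XY gonads carrying Sox9-CFP, and granulosa cells, named pregranulosa cells here, came from XX gonads carrying TESM-CFP. All embryos were on a mixed C57BL/6 and CD1 background, gonads were pooled for each sort, and chromatin of Drosophila S2 cells was added as carrier. The purity of each population therefore rests on 1 reporter and its driver. Per the series' design text, each of the 8 peak lists was made from both replicates, so the lists show where a mark was called but neither its strength nor its spread between replicates. No test was possible and differences between lists are given as descriptions.

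H3K4me3 marks the start sites of active and poised genes, whereas H3K27me3 is deposited by Polycomb repressive complexes over genes that are held silent. A promoter that carries both marks is called bivalent, a state found at many developmental regulators before a cell commits to a fate. In the mouse testis Dmrt1 maintains Sertoli cell identity after birth and acts in germ cells, while in the fetal gonad it is present in both sexes before becoming stronger in the testis.

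Promoter sequences of 6 of the 7 genes were found in RefSeq (GRCm38.p6), and Dmrt1 has no entry there. They are shown because the genes fell into those with and those without H3K4me3 at the start site, and CpG dinucleotides, which are capitalised, are a common feature of H3K4me3-marked promoters. Each line gives the 100 bases just upstream of the RefSeq start, 5′ to 3′ on the strand of the gene, with its position on NCBIM37 found by exact match of the promoter. The first 4 sequences belong to promoters with H3K4me3 in all 4 populations and the last pair to promoters without it in any.
Dmrt3, chr19:25684927-25685026, plus strand: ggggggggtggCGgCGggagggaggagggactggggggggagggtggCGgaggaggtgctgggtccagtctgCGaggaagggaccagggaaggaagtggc
Dmrt2, chr19:25746801-25746900, plus strand: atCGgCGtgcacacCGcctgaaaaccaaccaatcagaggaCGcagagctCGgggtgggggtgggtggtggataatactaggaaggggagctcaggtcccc
Dmrta1, chr4:89354789-89354888, plus strand: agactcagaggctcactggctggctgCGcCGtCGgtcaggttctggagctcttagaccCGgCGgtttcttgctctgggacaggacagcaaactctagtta
Dmrta2, chr4:109650530-109650629, plus strand: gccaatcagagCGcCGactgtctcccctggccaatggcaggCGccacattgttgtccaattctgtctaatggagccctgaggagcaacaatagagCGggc
Dmrtb1, chr4:107356836-107356935, minus strand: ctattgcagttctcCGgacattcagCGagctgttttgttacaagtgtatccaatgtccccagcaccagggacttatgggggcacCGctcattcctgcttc
Dmrtc2, chr7:25654976-25655075, plus strand: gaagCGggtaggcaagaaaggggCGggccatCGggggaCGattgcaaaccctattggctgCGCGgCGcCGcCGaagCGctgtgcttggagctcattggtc

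These 100 bases held 4 CpGs at Dmrt3, 5 at Dmrt2, 5 at Dmrta1, 4 at Dmrta2, 3 at Dmrtb1 and 10 at Dmrtc2. A further RefSeq start of Dmrtb1, 641 bp downstream and not shown, had 9 in its 100 bases and also lacked H3K4me3. The count at Dmrtb1 thus depends on the start taken. The sequence with the most CpGs thus belonged to Dmrtc2, which had no H3K4me3 at its start in any list. Over a wider 1001 bp around the annotated TSS, the ratio of observed to expected CpGs was 0.68 at Dmrt1, 0.71 at Dmrt3, 0.68 at Dmrt2, 0.75 at Dmrta2, 0.58 at Dmrtb1 and 0.59 at Dmrtc2, against a median of 0.56 over the 21418 genes. The annotated 5′ end of Dmrta1 stood apart at 0.27, while its RefSeq start had 0.76. The 7-base core of the DMRT1 recognition motif, ACAATGT or its reverse complement ACATTGT, was searched on both strands of the 300 bases from 250 upstream to 50 downstream of each RefSeq start. It was found in 974 of 32851 promoters (2.96%) and, of the 7 entries for Dmrt genes (Dmrtb1 has an additional one), in that of Dmrta2 alone, where it can be read in the sequence shown as acattgt.

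Dmrt1 is covered here by the primers with which the study assayed its promoter in ChIP-qPCR, printed with their CpG in capitals.
Dmrt1 forward, chr19:25579843-25579862, plus strand: tgccagtctctgttagccaa
Dmrt1 reverse, chr19:25580007-25580026, minus strand: ctacaaacctcagcCGtgtg
They enclose 184 bp from −265 to −82 bp of the TSS. All 184 bp lay within an H3K4me3 region in each of the 4 lists. The same bases lay within an H3K27me3 region in XY progenitor, XX progenitor and pregranulosa cells, and 0 bp did in Sertoli cells.

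H3K4me3 was present in the promoter windows of Dmrt1, Dmrt3, Dmrt2 and Dmrta2 in every population, which is 4 of 7 genes each time. Among all 21418 genes, 64.8% were called in XY progenitor, 66.7% in XX progenitor, 65.5% in Sertoli and 67.0% in pregranulosa cells, so the share of Dmrt genes was near the background. H3K27me3 was present at 6 Dmrt promoters in each progenitor population, 5 in Sertoli cells and 5 in pregranulosa cells. Here the background was 23.6%, 22.8%, 24.2% and 22.1% in the same order. The share of Dmrt genes with H3K27me3 was above the background in each list, a description without a test. The covered bases differed in the same direction, but they come from the same calls and are not separate evidence. The median Dmrt window had 4001 bp of H3K27me3 in each population, whereas the median over all genes was 0 bp. H3K27me3 filled the whole window at 5, 5, 5 and 4 Dmrt genes, against 15.0%, 16.3%, 17.3% and 16.3% of all genes. The median H3K4me3 coverage of the Dmrt windows was 1274 bp in XY progenitor, 3109 bp in XX progenitor, 2540 bp in Sertoli and 2070 bp in pregranulosa cells. Over all genes it was 1563.5 bp, 2281 bp, 1919 bp and 2182 bp, and the XY progenitor list, which had the fewest tags of the 3 H3K4me3 lists with a known depth, had the lowest median in both cases. The part of depth in this was not tested.

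**Figure D1:**
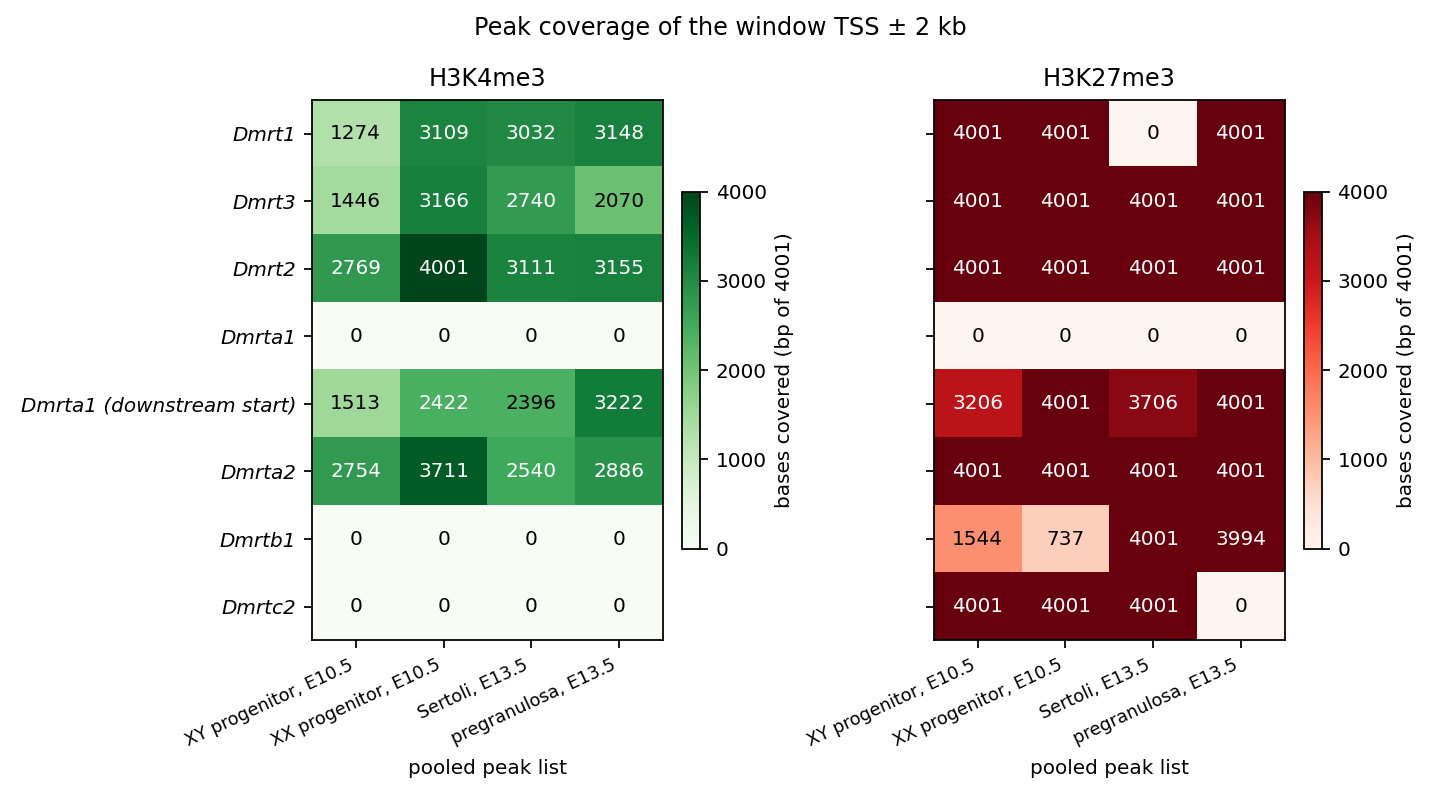
Bases of the 4001 bp window around each start site that were covered by H3K4me3 (left) or H3K27me3 (right) in the pooled peak list of each population, with Dmrta1 shown at its annotated 5′ end and at its downstream start. Dmrt3, Dmrt2 and Dmrta2 had both marks in all populations, Dmrt1 had 0 bp of H3K27me3 in Sertoli cells, and Dmrtc2 had 0 bp in pregranulosa cells.

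Bivalent windows were those of Dmrt1, Dmrt3, Dmrt2 and Dmrta2 in XY progenitor, XX progenitor and pregranulosa cells, 4 of 7 genes, and those of Dmrt3, Dmrt2 and Dmrta2 in Sertoli cells, 3 of 7. Among all genes 20.9%, 21.4%, 19.6% and 19.2% were bivalent in these populations. H3K27me3 covered all 4001 bp of each of these bivalent windows, so every base with H3K4me3 there necessarily lay within an H3K27me3 region. The pattern of Dmrt3, Dmrt2 and Dmrta2, marked in all 8 lists, was shared by 2997 genes in all (14.0%), while that of Dmrt1, marked in all lists except H3K27me3 of Sertoli cells, was shared by 327 genes (1.53%).

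Dmrt1 (ENSMUSG00000024837.8) spans 98712 bp at chr19:25580108-25678819 on the plus strand and has 5 exons in its main transcript. H3K4me3 covered 1274 bp of its promoter window in XY progenitor, 3109 bp in XX progenitor, 3032 bp in Sertoli and 3148 bp in pregranulosa cells. The region at the start site reached from −1097 to +176 bp in XY progenitor cells, where it ended in exon 1, and into intron 1 in the other lists, as far as +1943, +2598 and +1983 bp. The Sertoli region was the widest at 3630 bp, and 8.12% of the H3K4me3 regions of that list were at least as wide.

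H3K27me3 at the Dmrt1 start was called in all populations except Sertoli cells. The region ran from −4457 to +9673 bp in XY progenitor cells (14131 bp), from −4342 to +11091 bp in XX progenitor cells (15434 bp) and from −2812 to +6061 bp in pregranulosa cells (8874 bp), in each case from upstream of the promoter into intron 2. In Sertoli cells the nearest H3K27me3 region began 91024 bp downstream of the start, in intron 4. Of the 3 H3K27me3 lists with a known depth, the Sertoli list had the most tags, 44446456 against 6470151 in XY progenitor and 33185400 in XX progenitor cells. Of the 5060 promoters with H3K27me3 in XY progenitor cells, 22.4% were not called in Sertoli cells, and among the 6 Dmrt promoters Dmrt1 alone was not. Of the 4723 promoters with H3K27me3 in pregranulosa cells, 13.4% were not called in Sertoli cells, again with Dmrt1 as the only one of 5 Dmrt promoters. Both shares of Dmrt genes rest on 1 gene and lay close to the background.

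The difference was also present within the Dmrt1 gene body. H3K27me3 covered 48.2% of the gene in XY progenitor, 53.9% in XX progenitor and 48.9% in pregranulosa cells, in 5, 5 and 4 regions. In Sertoli cells it covered 7.79%, all of it in 1 region at the 3′ end that continued into Dmrt3. A region at +37560 to +42560 bp in XY progenitor and at +36359 to +44090 bp in XX progenitor cells contained exon 3. Its counterpart in pregranulosa cells, +35180 to +40180 bp, ended within intron 2, just short of exon 3, which begins at +40201 bp. The XY progenitor and pregranulosa regions were each 5001 bp wide, so this contrast rests on where a single peak was placed. Further regions in intron 4 lay between +57164 and +73678 bp in XY progenitor, between +57030 and +73462 bp in XX progenitor and from +55150 to +73074 bp in pregranulosa cells. None of these had a counterpart in the Sertoli list.

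H3K4me3 covered more of the Dmrt1 body in the E13.5 lists than in the E10.5 lists. It covered 1.85% in XY progenitor, 6.17% in XX progenitor, 10.2% in Sertoli and 12.6% in pregranulosa cells. H3K4me3 tags numbered 10162534 in XY progenitor, 49254553 in XX progenitor and 31104760 in Sertoli cells, and are unknown for pregranulosa cells. The part of depth was not tested. Sites at +7358 to +9812 bp and at +23257 to +24762 bp, both in intron 2, were called in Sertoli and pregranulosa cells and in neither progenitor population. The first of these overlapped H3K27me3 in both progenitor populations and in neither E13.5 population. A site at +30576 to +32275 bp in intron 2 was called in all lists but that of XY progenitor cells. A site in intron 4, +68497 to +71129 bp, was called in all 4 lists and overlapped H3K27me3 in all but Sertoli cells. Between Kank1 and Dmrt1, a site at −19608 to −17598 bp had H3K4me3 in all 4 lists, with H3K27me3 in both progenitor populations and neither E13.5 population. A further site at −9004 to −7308 bp was called in Sertoli cells alone and overlapped H3K27me3 in no list.

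**Figure D2:**
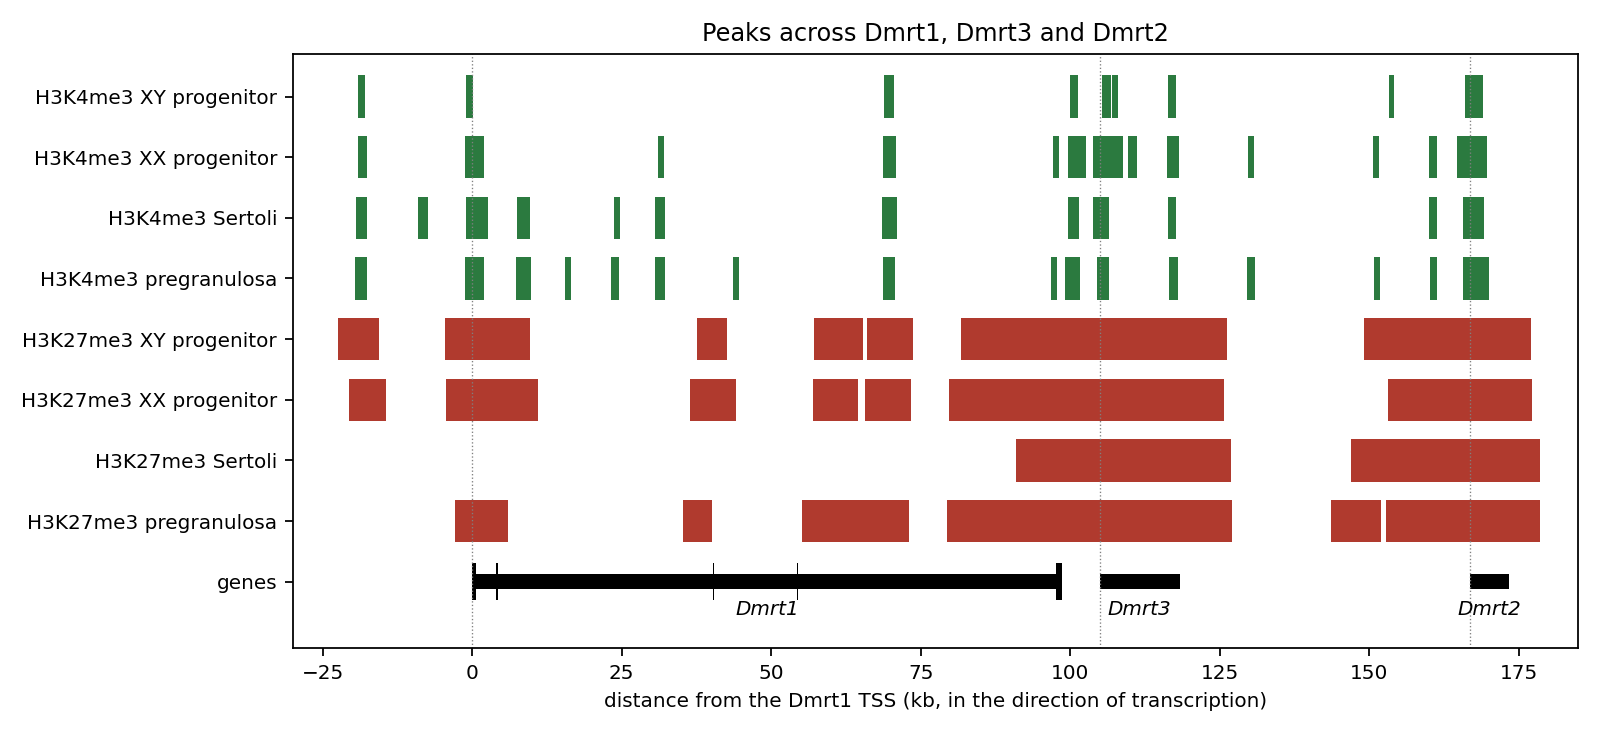
H3K4me3 (green) and H3K27me3 (red) regions of each population along Dmrt1, Dmrt3 and Dmrt2, drawn to scale in kb from the Dmrt1 TSS, with genes as black bars, Dmrt1 exons as taller blocks and dotted lines at the 3 start sites. The Sertoli list had 2 H3K27me3 regions from the Dmrt1 start onward, at 91.0 to 127 kb and 147 to 179 kb, whereas the other lists also had regions at the Dmrt1 start and in its introns.

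Dmrt3 (ENSMUSG00000042372.4, chr19:25685027-25698410, plus strand), which specifies interneurons of the spinal cord, begins 6208 bp beyond the end of Dmrt1. H3K27me3 covered its whole promoter window and 100% of its gene body in all 4 populations. The domain over Dmrt3 also held the 3′ end of Dmrt1 in each list and was 44466 bp wide in XY progenitor, 46008 bp in XX progenitor, 35807 bp in Sertoli and 47685 bp in pregranulosa cells. Its right edge differed little, lying +21268, +20766, +21911 and +22188 bp from the Dmrt3 TSS. Its left edge lay −23197, −25241 and −25496 bp from the TSS in XY progenitor, XX progenitor and pregranulosa cells and −13895 bp in Sertoli cells. The Sertoli domain was thus shorter on the side of Dmrt1. H3K4me3 covered 1446, 3166, 2740 and 2070 bp of the Dmrt3 window in XY progenitor, XX progenitor, Sertoli and pregranulosa cells. In XY progenitor cells it began 472 bp downstream of the TSS, and in the other lists it included the TSS.

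Dmrt2 (ENSMUSG00000048138.8, chr19:25746907-25753500, plus strand), a regulator of somite patterning and early muscle development, begins 48497 bp beyond the end of Dmrt3. It carried H3K27me3 over its whole window and 100% of its body in every list, in regions of 27836, 24175, 31619 and 25712 bp. H3K4me3 covered 2769 bp of the window in XY progenitor, 4001 bp in XX progenitor, 3111 bp in Sertoli and 3155 bp in pregranulosa cells. The Dmrt2 promoter was therefore bivalent in all populations and had the largest H3K4me3 coverage of the 3 clustered genes in each list, although in pregranulosa cells Dmrt1 had only slightly less, 3148 bp. The next protein-coding gene, Smarca2, began 926150 bp further on.

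Across the 173393 bp from the start of Dmrt1 to the end of Dmrt2, H3K27me3 covered 99239 bp (57.2%) in XY progenitor, 100500 bp (58.0%) in XX progenitor, 62194 bp (35.9%) in Sertoli and 105582 bp (60.9%) in pregranulosa cells. Of the bases covered in Sertoli cells, 95.4% were covered in XY progenitor cells and 98.7% in pregranulosa cells. In the other direction, 59.8% of the XY progenitor bases and 58.1% of the pregranulosa bases were covered in Sertoli cells. The difference was made up mostly of Dmrt1. In the 48496 bp between Dmrt3 and Dmrt2 the Sertoli list covered 58.4%, within the range of 43.5% to 64.2% of the other lists, and in the 6207 bp between Dmrt1 and Dmrt3 all lists covered 100%.

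H3K4me3 covered 10910 bp of the cluster in XY progenitor, 26105 bp in XX progenitor, 20764 bp in Sertoli and 26446 bp in pregranulosa cells. Joined over the lists it formed 17 sites, of which 6 were called in all 4 lists, 2 in 3 lists, 5 in 2 lists and 4 in 1 list. H3K27me3 also covered 100% of the H3K4me3 bases in XY progenitor, 88.5% in XX progenitor, 67.2% in pregranulosa and 51.5% in Sertoli cells. The XY progenitor list, with the fewest H3K4me3 bases, was made from 10162534 H3K4me3 tags, against 49254553 in XX progenitor and 31104760 in Sertoli cells, and the part of this in the difference was not tested.

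**Figure D3:**
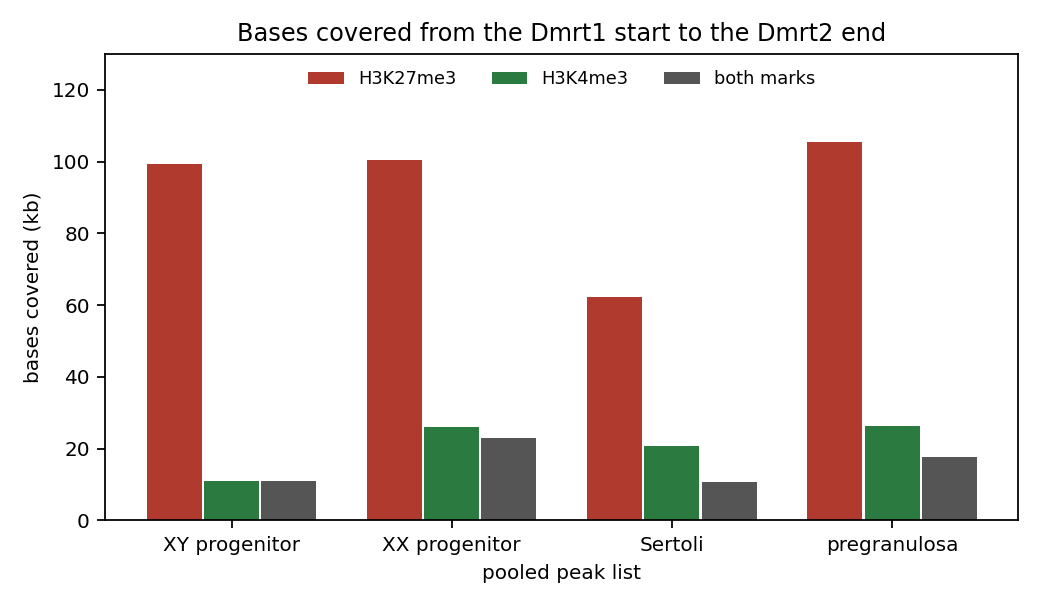
Bases, in kb, covered by H3K27me3, by H3K4me3 and by both marks between the start of Dmrt1 and the end of Dmrt2 in the pooled list of each population. H3K27me3 covered 62194 bp in Sertoli cells and between 99239 and 105582 bp in the other populations.

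Dmrta2 (ENSMUSG00000047143.3, chr4:109650658-109656292, plus strand), which patterns the cerebral cortex, resembled Dmrt2 and Dmrt3. H3K27me3 covered its whole window and gene body in all lists. The H3K27me3 regions were 28284 bp in XY progenitor, 28217 bp in XX progenitor, 30744 bp in Sertoli and 29650 bp in pregranulosa cells, and their left edges lay within −9281 to −9976 bp of the TSS. H3K4me3 covered 2754, 3711, 2540 and 2886 bp of the window in the same order, and 49.5%, 92.8%, 71.7% and 100% of the gene body. The neighbouring genes Faf1 and Elavl4 had H3K4me3 without H3K27me3 at their starts in all 4 populations.

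Dmrta1 (ENSMUSG00000043753.2, chr4:89346127-89361463, plus strand), a relative of Dmrta2 expressed in the developing forebrain, had neither mark in the window at its annotated 5′ end in any list. That end belongs to a transcript whose start differs from that of the coding transcript in RefSeq, which lies 8762 bp downstream. At the downstream start H3K4me3 covered 1513 bp in XY progenitor, 2422 bp in XX progenitor, 2396 bp in Sertoli and 3222 bp in pregranulosa cells. H3K27me3 covered 3206, 4001, 3706 and 4001 bp there. Dmrta1 was thus unmarked in all populations at its annotated 5′ end and bivalent in all populations at its RefSeq start, and the latter position was examined after the data had been seen. Counted at any annotated transcript start, 5 Dmrt promoters were bivalent in XY progenitor, XX progenitor and pregranulosa cells and 4 in Sertoli cells. The share over all genes was not determined under this rule, which can only raise it. These counts therefore cannot be set against the background shares given above.

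**Figure D4:**
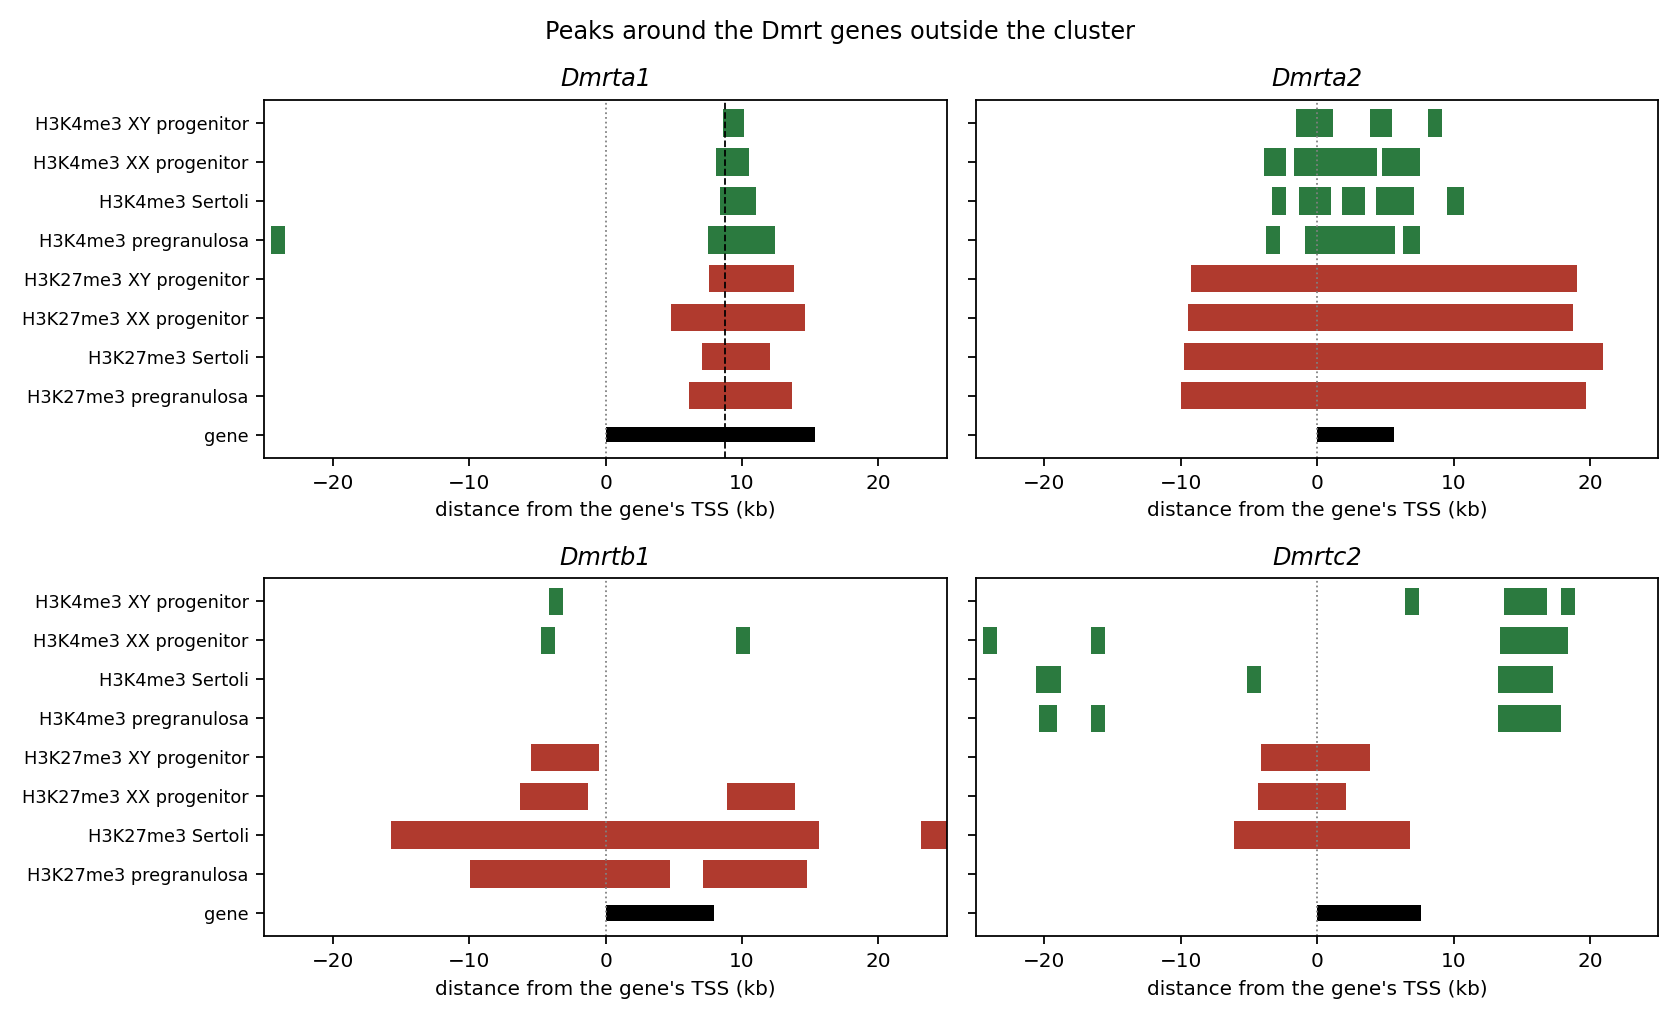
H3K4me3 (green) and H3K27me3 (red) regions within 25 kb of the TSS of Dmrta1, Dmrta2, Dmrtb1 and Dmrtc2, in kb from the TSS in the direction of transcription, with the gene as a black bar, a dotted line at the annotated TSS and a dashed line at the downstream start of Dmrta1. Both marks met at the Dmrta2 TSS and at the downstream Dmrta1 start in all populations, whereas H3K4me3 was absent from the Dmrtb1 and Dmrtc2 start sites.

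Dmrtb1 and Dmrtc2 act in germ cells, Dmrtb1 in the switch of spermatogonia to meiosis and Dmrtc2 in spermatocytes at the pachytene stage. Neither had H3K4me3 in its promoter window in any of the 4 populations. Of the 7 Dmrt genes they were those with H3K27me3 alone.

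At Dmrtb1 (ENSMUSG00000028610.10, chr4:107348895-107356835, minus strand) H3K27me3 covered more of the window in the E13.5 lists than in the E10.5 lists. It covered 1544 bp of the window in XY progenitor and 737 bp in XX progenitor cells, in each case the edge of a single 5001 bp region that ended 457 or 1264 bp upstream of the TSS. In Sertoli cells a region of 31349 bp covered the whole window and 100% of the gene. In pregranulosa cells regions of 5001 and 9653 bp, separated by 7 bp, covered 3994 bp of the window, and 69.3% of the gene body was covered. With lists of equal length the pregranulosa window had 1716 bp, close to the 1544 bp of XY progenitor cells. The H3K27me3 tags numbered 6470151 in XY progenitor and 44446456 in Sertoli cells, and the part of depth was not tested. The gene body had 0% in both progenitor populations. Single 1001 bp H3K4me3 regions lay 3138 bp upstream of the TSS in XY progenitor and 3738 bp upstream in XX progenitor cells. At E13.5 the nearest H3K4me3 lay 56406 bp away in Sertoli and 47887 bp away in pregranulosa cells. The presence and absence of marks at Dmrtb1 over the 8 lists was shared by 169 genes (0.789%).

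At Dmrtc2 (ENSMUSG00000011349.5, chr7:25655076-25662670, plus strand) H3K27me3 filled the window in both progenitor populations, in regions of 8039 bp (XY) and 6417 bp (XX), and in Sertoli cells, in a region of 12899 bp. It was not called in pregranulosa cells, where the nearest H3K27me3 region lay 58555 bp away. The gene body was covered to 51.4%, 27.5% and 89.1% in the first 3 lists and to 0% in pregranulosa cells. Dmrtc2 and Lypd4, transcribed from the opposite strand, start 116 bp apart, so their windows overlap and cannot be told apart. Of the 4894 promoters with H3K27me3 in XX progenitor cells 18.5% were not called in pregranulosa cells, and of the 6 Dmrt promoters Dmrtc2 alone was not. Of the 5184 in Sertoli cells 21.1% were not called in pregranulosa cells, and Dmrtc2 was the only one of 5. The pattern of Dmrtc2 over the 8 lists was shared by 11 genes (0.0514%). The pregranulosa lists give no tag number, so the depth behind this absence is unknown.

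Dmrt1 and Dmrtc2 thus differed from the other Dmrt genes in opposite E13.5 populations. Dmrt1 lacked H3K27me3 in Sertoli cells and had H3K4me3 there, whereas Dmrtc2 lacked H3K27me3 in pregranulosa cells and had no H3K4me3 in its window in either. Both had H3K27me3 over 4001 bp in XX and XY progenitor cells.

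Genes whose marks were most like those of Dmrt1 were sought over 16 values, the covered percentages of window and gene body for both marks in the 4 populations. The smallest mean absolute differences were 6.13 percentage points for Dok7, 6.18 for Cx3cl1, 7.98 for Svip, 8.33 for Mapk13 and 8.49 for Fabp3. All 5, which were picked for this likeness, had H3K4me3 in every list, and H3K27me3 in every list but that of Sertoli cells. At Dok7 the H3K4me3 coverage of the window was 1260, 2505, 2465 and 2405 bp in XY progenitor, XX progenitor, Sertoli and pregranulosa cells, and H3K27me3 covered 4001, 4001, 0 and 4001 bp.

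Other genes of sex determination were placed beside Dmrt1 by the same windows. Of 10 testis-side genes (Sox9, Sox8, Fgf9, Amh, Dhh, Ptgds, Nr5a1, Gata4, Wt1 and Zfpm2), 8 had H3K27me3 in XY progenitor, 8 in XX progenitor, 0 in Sertoli and 5 in pregranulosa cells. Dmrt1 had H3K27me3 in the same lists as Sox9, Sox8, Fgf9 and Dhh, which all had 0 bp in Sertoli and 4001 bp in pregranulosa cells. The gonadal factors Nr5a1, Gata4, Wt1 and Zfpm2 differed from Dmrt1 in having 0 bp in pregranulosa cells too. Of 8 ovary-side genes (Foxl2, Wnt4, Rspo1, Lef1, Fst, Bmp2, Esr1 and Esr2), 7 had H3K27me3 in each progenitor population and in Sertoli cells and 4 had it in pregranulosa cells. Wnt4, Rspo1 and Bmp2 had the H3K27me3 pattern of Dmrtc2, with 0 bp in pregranulosa cells, and unlike Dmrtc2 had H3K4me3 in all lists. The pattern was not limited to ovary-side genes. Dppa3, a germ cell marker, had it too, with H3K4me3 in all populations but XY progenitor cells. The testis-side and ovary-side lists include genes that the study chose to discuss and are not independent evidence of a direction.

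The markers of the sorted cells bear on the labels. Of 4 Sertoli markers (Sox9, Amh, Dhh and Cldn11), 0 had H3K27me3 in Sertoli cells and 4 in pregranulosa cells, and all 4 had H3K4me3 in each list. The calls at Amh rested on only 150 bp of H3K4me3 in XY progenitor and 725 bp of H3K27me3 in pregranulosa cells. Of 4 pregranulosa markers (Foxl2, Irx3, Bmp2 and Fst), 4 had H3K27me3 in Sertoli and 3 in pregranulosa cells. Since germ cells also use Dmrt1, Dmrtb1 and Dmrtc2, 5 germ cell markers (Ddx4, Dazl, Dppa3, Pou5f1 and Sycp3) were examined. H3K4me3 was called at 1 in XY progenitor, 3 in XX progenitor, 4 in Sertoli and 2 in pregranulosa cells. Ddx4 had 0 bp in all lists, whereas Dazl had 1787, 2064, 1256 and 2134 bp in the same order. In Sertoli cells Dppa3 (1561 bp), Pou5f1 (1001 bp) and Sycp3 (1001 bp) were called too. Dppa3 was also called in XX progenitor and pregranulosa cells, and Sycp3 in XX progenitor cells. H3K27me3 covered 4001 bp at Dppa3 and Pou5f1 in Sertoli cells, so both were bivalent there. Pou5f1 had 4001 bp of H3K27me3 in all 4 lists, while Ddx4, Dazl and Sycp3 had 0 bp in each. Of 3 endothelial markers (Cdh5, Pecam1 and Kdr), 1, 1, 1 and 2 had H3K4me3. Kdr was called in all 4 lists, with 2820, 2998, 2051 and 3337 bp, and also had 4001 bp of H3K27me3 in each. Cdh5 was called in pregranulosa cells alone (1001 bp), and Pecam1 had 0 bp in all. The part of other cell types in the marks at the Dmrt genes was not tested.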

How the data were processed

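H3, H3K4me3 and H3K27me3 were profiled in 2 replicates of 4 gonadal populations. Bowtie was used by the authors for alignment to mm9 and HOMER findPeaks, in histone style with H3 as input, for peak calling. They deposited 8 lists, each made from both replicates per the design text of the series. The submitters' processing notes also name Trim Galore and SAMtools. Per the file headers the peak size was 1000 bp for H3K4me3 and 5000 bp for H3K27me3, and peaks had to reach a fold of 4.00 over input at a Poisson p-value of 1e-04. The methods of the study describe peaks called for each replicate, whereas the 6 headers name joined replicates. How the replicates were joined, and the settings used, are not given in the 2 pregranulosa lists, which have no header. The deposited score column is the same in every row, so only presence was used. Tags numbered 6470151 to 49254553 in the 6 lists with a header, and the depth of the pregranulosa lists is unknown. A list with fewer tags can miss or shorten regions.

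Overlapping peaks of a list were joined, since 3 H3K27me3 lists held overlapping 5001 bp windows. Gene positions came from GENCODE release M1 on NCBIM37, the same build as mm9, and positions count from 1. A window was TSS ± 2 kb, marked from 1 bp of overlap and bivalent when both marks were present. Alternatives required 500 bp, narrowed the window to TSS ± 1 kb, took each list's widest 75% of regions, equalised the lists' lengths, joined regions within 1 kb or took any annotated transcript start. RefSeq promoters and primers were placed by exact match. All 7 genes were named, with their neighbours, the 5 genes most like Dmrt1 and the lists given. Members and lists were chosen with earlier results of these data known. No test was run, as each condition had 1 pooled list. Interval steps were tested on simulated data and against bedtools 2.31.1. Python 3.11.15, NumPy 2.4.6 and matplotlib 3.10.9 were used.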

Additional observations from a re-analysis of the deposited data

Results flagged for a closer look

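Among the covered bases of the 7 promoter windows, the 7 gene bodies and the whole cluster, for both marks, the change from E10.5 to E13.5 had opposite directions in the XY and XX lineages for 4 values. Each rests on 1 pooled list per population and the difference between lineages was not tested. H3K27me3 over the Dmrt1-Dmrt3-Dmrt2 cluster fell by 37045 bp from XY progenitor to Sertoli cells. It rose by 5082 bp from XX progenitor to pregranulosa cells, a difference of 42127 bp. With lists of equal length the XX rise nearly vanished, at 100500 bp in XX progenitor and 100581 bp in pregranulosa cells. No segment of the cluster had opposite directions. The Dmrt1 body fell in both lineages, from 47588 to 7688 bp (XY) and from 53224 to 48277 bp (XX). The stretch between Dmrt3 and Dmrt2 rose in both, from 25466 to 28321 bp (XY) and from 21091 to 31120 bp (XX). H3K27me3 over the Dmrtc2 gene body was 3901 bp in XY progenitor and 6764 bp in Sertoli cells, and 2091 bp in XX progenitor and 0 bp in pregranulosa cells, so that the XX change less the XY change was -4954 bp. H3K4me3 in the Dmrt3 promoter window was 1446 bp in XY progenitor and 2740 bp in Sertoli cells, and 3166 bp in XX progenitor and 2070 bp in pregranulosa cells, a difference of -2390 bp. H3K4me3 in the Dmrt2 window was 2769 and 3111 bp in the XY lineage and 4001 and 3155 bp in the XX lineage, a difference of -1188 bp. For H3K4me3 the XY progenitor list had 10162534 tags and the XX progenitor list 49254553, and the part of this in both H3K4me3 values was not tested.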

How the results depend on the processing

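The counts of marked and bivalent Dmrt promoters and the covered bases of the cluster stayed within 1.5 times their values under every alternative run. H3K27me3 of XX progenitor cells was called at 6 Dmrt promoters with TSS ± 2 kb and at 5 with TSS ± 1 kb, and the widest 75% of regions gave 5 in each progenitor population, since the 5001 bp regions at Dmrtb1 were then dropped. Any annotated transcript start added Dmrta1 to each count. The absence of H3K27me3 from Dmrt1 in Sertoli cells and from Dmrtc2 in pregranulosa cells could not change under these alternatives, which remove regions or join those within 1 kb, since the nearest regions lay 91024 and 58555 bp away. The covered bases of the Dmrtb1 window in pregranulosa cells were 1716 bp instead of 3994 bp with the widest 75% of regions or with lists of equal length, and joining regions within 1 kb raised H3K4me3 of the Dmrta2 window in Sertoli cells from 2540 to 4001 bp. No paired analysis was possible because each list joins both replicates, and for the same reason no replicate could be left out.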
